A study of Arabidopsis thaliana with 12 samples.

Results

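FZL (AT1G03160) and the fibrillin AT5G19940 are nuclear genes whose products act at the membranes of the plastid, and their transcripts were followed here in an Arabidopsis thaliana cell culture given cytokinin or water. Each gene is represented by 1 feature of the array, the only 2 of 3439 features whose platform annotation names exactly 1 gene and that gene is FZL or AT5G19940. Neither gene occurs on a feature shared with other genes. Both were chosen by their measured values in the comparison described below. FZL had an adjusted p of 0.0102 in a fit of the 2 groups. In a fit that also holds the replicate number as a block, the adjusted p was 0.00116 for FZL and 0.0132 for AT5G19940. Their differences between cytokinin and water are therefore given as descriptions, and the adjusted p-values support nothing further.

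The cytokinin group holds 6 arrays of total RNA from wild-type Columbia-0 cell culture treated for 2 h. The water group holds 6 arrays of the same wild-type culture, which one label calls treated with water and another calls untreated. The sources used here name neither the cytokinin nor the array, and give no duration for water. Replicate numbers run from 1 to 6 in each group. The labels do not say whether the numbers are separate cultures, so the spread between arrays may be technical.

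The inner membranes of the plastid, the thylakoids, hold the photosynthetic complexes and are built up as an unpigmented plastid turns into a chloroplast. FZL is a dynamin-like GTPase of the chloroplast, related to the FZO proteins that fuse mitochondria, and Arabidopsis mutants without it have misshapen chloroplasts and disordered thylakoids. Fibrillins, also called plastid lipid-associated proteins, are a family that coats plastoglobules, the lipid droplets of the plastid, or sits at the thylakoid and in the stroma. Cytokinin is a plant hormone of cell division that is also known to promote greening and chloroplast development.

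Intensities are hybridization signals in arbitrary units, scaled by the authors in a way not given in the sources used here, and totalled 3743 to 3875 per array. The median intensity was 0.674 to 0.693 on cytokinin arrays and 0.724 to 0.744 on water arrays. The arrays were therefore quantile-normalized, which gives every array the same distribution of values. Normalized intensities are used below unless the deposited ones are named. In such a culture, fewer cells of a type and less RNA per cell cannot be told apart. None of the 10 type-A response regulators, the usual early transcripts of a cytokinin response, and none of 16 markers of leaf, guard cell, root hair, vascular and pollen cells was the only gene of a feature. Neither the hormone response nor the makeup of the culture was checked through them.

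FZL was higher with cytokinin on every array. Its normalized intensity was 2.04, 2.14, 2.04, 2.08, 1.94 and 1.87 on cytokinin arrays 1 to 6, and 1.55, 1.70, 1.56, 1.71, 1.66 and 1.55 on water arrays 1 to 6. The lowest cytokinin array lay above the highest water array, so the groups did not overlap. Of the 3091 features tested, 46 (1.49%), FZL included, had every cytokinin array above every water array. The group means were 2.02 ± 0.1 with cytokinin and 1.62 ± 0.0759 with water (SD, n = 6 each). The difference of the means was 0.32 on the log2 scale, which is 1.25-fold, with an SE of 0.05 without a block and 0.04 with it. Rises past an adjusted p of 0.05 in the fit without a block were 1.1% of the features tested. FZL was chosen because it is among them.

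AT5G19940 differed far more from one replicate number to the next than between the groups. Its normalized intensity was 1.13, 1.77, 1.32, 1.46, 0.982 and 1.05 on cytokinin arrays 1 to 6, and 1.02, 1.58, 1.14, 1.32, 0.887 and 0.903 on water arrays 1 to 6. The groups overlapped over most of their range: cytokinin arrays ran from 0.982 to 1.77 and water arrays from 0.887 to 1.58. Within each number, the cytokinin array was the higher of the pair. The group means were 1.29 ± 0.296 with cytokinin and 1.14 ± 0.268 with water (SD, n = 6 each). The difference was 0.17 on the log2 scale, which is 1.13-fold, with an SE of 0.17 without a block and 0.03 with it. Without the block the adjusted p was 0.937. The group means lay less than 1 SD of either group apart, and the difference was about the size of its SE without a block. With the replicate block, rises past an adjusted p of 0.05 were 6.47% of the features tested, and AT5G19940 was chosen because it is among them.

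**Figure D1:**
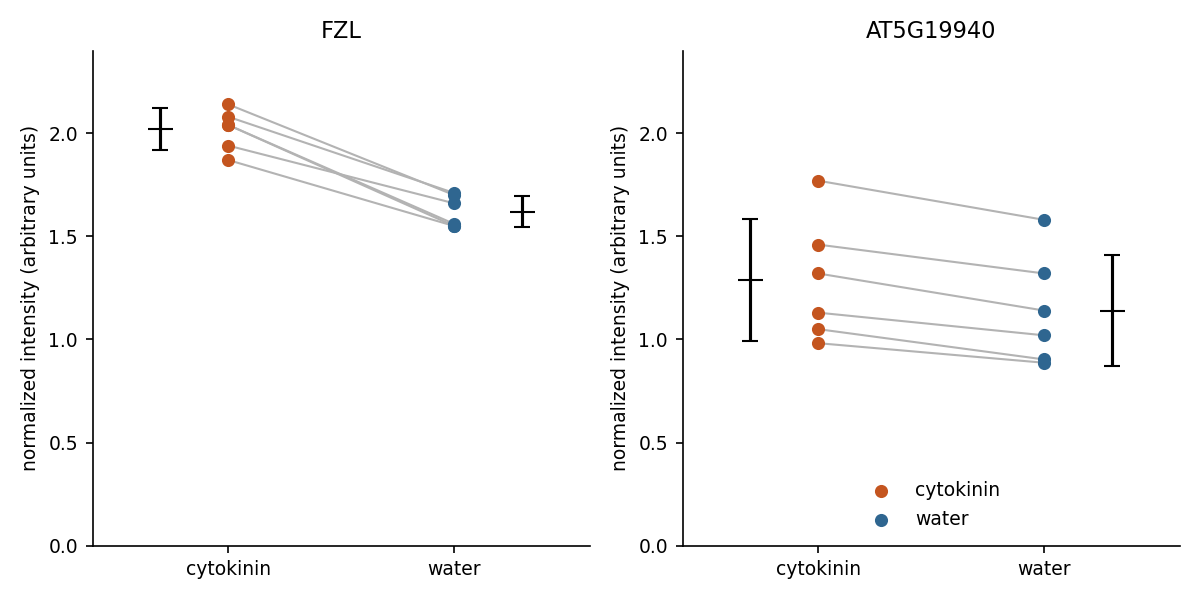
Normalized intensity (arbitrary units) of FZL and AT5G19940 on the 12 arrays, with cytokinin left and water right, grey lines joining arrays of the same number, and black bars giving the mean ± SD of 6 arrays. FZL arrays with cytokinin (1.87 to 2.14) lie above those with water (1.55 to 1.71), whereas the AT5G19940 groups overlap and the lines between them run almost parallel.

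Arrays of the same number deviated together across the features tested, with correlations of 0.7 to 0.84 between the 2 groups, so the comparison was also made within numbers. For FZL the log2 ratio of cytokinin over water was 0.40, 0.34, 0.38, 0.28, 0.23 and 0.27 in numbers 1 to 6. These ratios correspond to 1.17- to 1.32-fold, with the smallest in number 5 and the largest in number 1. For AT5G19940 the log2 ratios were 0.15, 0.16, 0.21, 0.14, 0.15 and 0.22 in numbers 1 to 6. These ratios correspond to 1.1- to 1.16-fold and lay within a narrower band than those of FZL. All 6 ratios were above 0 for both genes, and they were so for 313 (10.1%) of the features tested, both genes included. The FZL ratio exceeded the AT5G19940 ratio in every number, by 0.25, 0.17, 0.18, 0.14, 0.08 and 0.05 on the log2 scale in numbers 1 to 6. That difference was not tested, because both genes were chosen on these ratios.

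Deviations from the group mean also correlated between numbers 1 and 2 (0.48 with cytokinin and 0.63 with water), 3 and 4 (0.40 and 0.55) and 5 and 6 (0.72 and 0.81), over all features tested. The ratios were therefore also averaged in these 3 sets, which were chosen from these data. The mean log2 ratio of FZL was 0.37, 0.33 and 0.25 in the 3 sets, and that of AT5G19940 was 0.16, 0.18 and 0.18. FZL averaged 2.09, 2.06 and 1.9 on the cytokinin arrays of the 3 sets, against 1.62, 1.64 and 1.6 on their water arrays. The water arrays of FZL were thus nearly level over the sets, and the cytokinin arrays of numbers 5 and 6 were the lowest of their group. A fit of the set means blocked by set, 3 against 3, gave an adjusted p of 0.0595 for FZL and 0.236 for AT5G19940. Neither passed, where 41 of the 3091 features tested did.

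**Figure D2:**
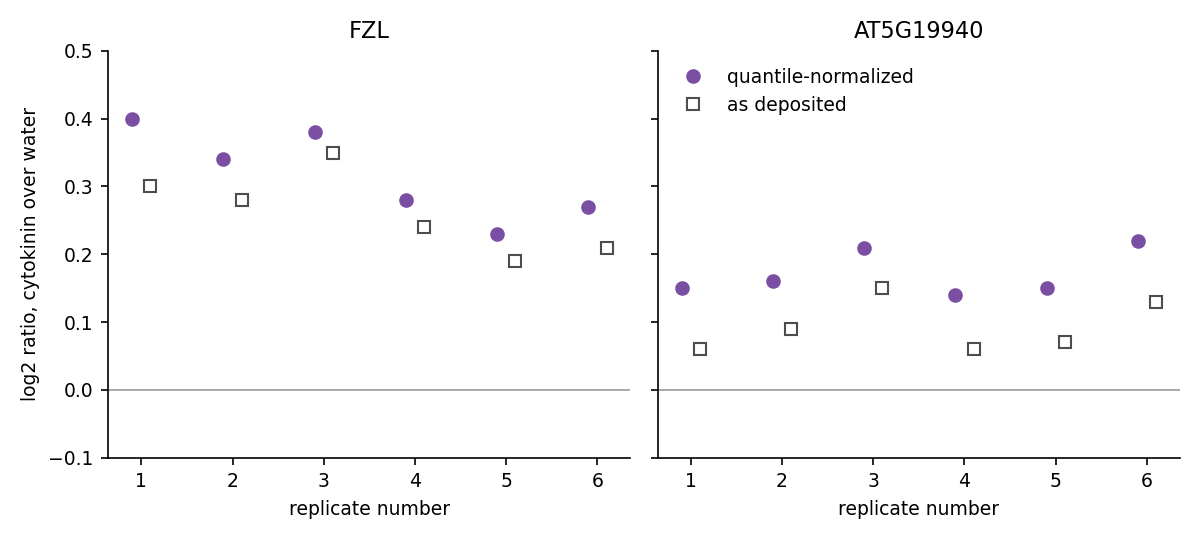
Log2 ratio of cytokinin over water for each replicate number, after quantile normalization (filled circles) and on the deposited values (open squares), for FZL and AT5G19940. Every ratio is above 0, and the AT5G19940 ratios are lower on the deposited values (0.06 to 0.15) than after normalization (0.14 to 0.22).

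The size of the AT5G19940 difference depended on the scaling of the arrays. On the deposited values AT5G19940 averaged 1.26 ± 0.304 with cytokinin and 1.18 ± 0.29 with water (SD, n = 6 each). Its log2 ratios were then 0.06, 0.09, 0.15, 0.06, 0.07 and 0.13 in numbers 1 to 6, with a mean of 0.09 and an adjusted p of 0.0722 with the replicate block. AT5G19940 thus did not pass with the block on the deposited values, where 837 of 3103 features did. FZL averaged 1.99 ± 0.116 with cytokinin and 1.66 ± 0.081 with water on the deposited values (SD, n = 6 each). Its deposited log2 ratios were 0.30, 0.28, 0.35, 0.24, 0.19 and 0.21, with a mean of 0.26 and an adjusted p of 0.0295 without the block. Normalization shifted the log2 value of AT5G19940 by a mean of 0.0364 on cytokinin arrays and -0.0435 on water arrays. The corresponding shifts of FZL were 0.0187 on cytokinin arrays and -0.035 on water arrays. Over all features tested, the median log2 difference was -0.0725 on the deposited values and 0.00282 after normalization, so both genes lay above that median on either scale.

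The spread between replicate numbers differed between the 2 genes and is given as a description. The mean of the cytokinin and the water array of a number had an SD over the 6 numbers of 0.0613 on the log2 scale for FZL. Of the features tested, 8.06% had a smaller SD, and the median of all was 0.149. Included are features whose low values were raised to a common floor on most arrays, which makes their SD small. For AT5G19940 the same SD was 0.323, and 87.9% of the features had a smaller one. The fit without a block counts the spread between numbers as error and so favours steady features. FZL passed that fit (adjusted p = 0.0102), and also the fit with the replicate block, which removes this spread (adjusted p = 0.00116). How far the choice of FZL accounts for its low SD was not tested. The wide spread of AT5G19940 was removed by the block in the fit that chose it. The difference between the 2 genes in this spread was not tested. The highest array of a group exceeded the lowest by 1.15-fold with cytokinin and 1.11-fold with water for FZL, and by 1.80-fold and 1.78-fold for AT5G19940.

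The order of the numbers was the same in both groups for AT5G19940. From high to low it was 2, 4, 3, 1, 6 and 5 with cytokinin, and also 2, 4, 3, 1, 6 and 5 with water. For FZL the order was 2, 4, 1, 3, 5 and 6 with cytokinin and 4, 2, 5, 3, 1 and 6 with water. Numbers 2 and 4 were thus the 2 highest of both genes in both groups, although for FZL neighbours in the order differed by little. What a shared number stands for is not in the labels, and the part of culture, extraction or hybridization in the AT5G19940 levels was not tested.

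As a description of the same 12 values, the sum of squares of the log2 intensities was divided between treatment, number and the rest. For FZL, treatment held 86.1%, number 10.7% and the rest 3.19%. For AT5G19940, treatment held 7.8%, number 92% and the rest 0.244%. The medians over all features tested were 4.98% for treatment, 76.8% for number and 12.2% for the rest, so a large share for number was usual on these arrays. The SD of the 6 ratios was 0.0669 for FZL and 0.0332 for AT5G19940, against a median of 0.124 over all features. Only 1.33% of features had a smaller SD of ratios than AT5G19940, features raised to the floor on most arrays included. That low SD belongs to how AT5G19940 was chosen, since the fit with the block favours features with even ratios.

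**Figure D3:**
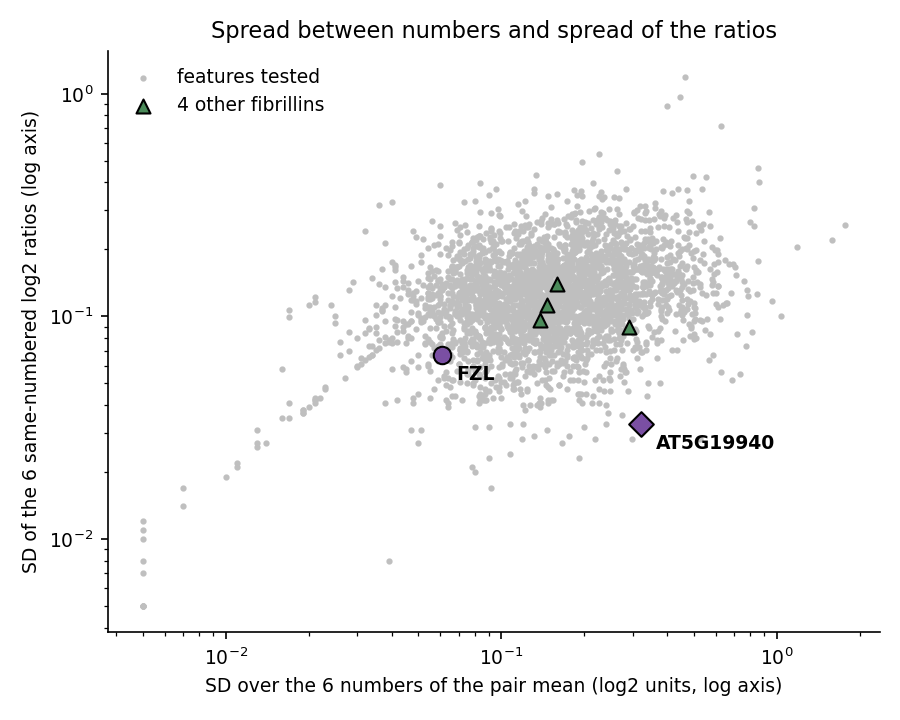
Each grey point is 1 of 3091 features tested, with the SD over the 6 numbers of the mean log2 intensity of a pair on the horizontal axis and the SD of its 6 log2 ratios on the vertical axis (both log axes; values under 0.005 are drawn at 0.005). FZL (circle) has a low spread on both axes, AT5G19940 (diamond) has a spread of 0.323 between numbers with ratios that spread by 0.0332, and the 4 other fibrillins (triangles) lie within the cloud.

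AT5G19940 was 1 of 5 measured fibrillins, and the other 4 did not pass the test in either fit. The Arabidopsis list held 14 fibrillin genes, of which 5 were the only gene of a feature, and another 6 occurred only on features shared with other genes, which were not read as genes here. The median log2 difference of the 5 was 0.03, beside 0.00282 over all features tested. On the deposited values it was -0.03, beside -0.0725 over all features, so its sign turned with the scaling. Without the block 0 of the 5 passed, where 1.55% of all features did. With the replicate block 1 of the 5 passed, AT5G19940 itself, where 11.7% of all features rose or fell. The list was composed with earlier results known, and AT5G19940 was chosen on this fit, so its count adds nothing to the call. The other 4 fibrillins did not pass in set means blocked by set, where 41 of the 3091 features did. They did not pass after a running median over 51 neighbouring features was removed, where 52 features did without the block and 478 with it. For these 4, every fit but the plain fit of the 2 groups was added after seeing the data. They were not run with the block on deposited or median-scaled values, where 837 and 477 features passed.

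AT1G51110 came closest to AT5G19940 in its log2 difference between the groups. It averaged 0.529 ± 0.0456 with cytokinin and 0.48 ± 0.0535 with water (SD, n = 6 each). Its 6 log2 ratios were all above 0 and ran from 0.03 to 0.28, with a mean of 0.14 and an adjusted p of 0.694 without the block and 0.0655 with it. On the deposited values that mean was 0.04. AT2G46910 averaged 1.68 ± 0.316 with cytokinin and 1.66 ± 0.348 with water (SD, n = 6 each), a log2 difference of 0.03 (adjusted p = 0.999, and 0.737 with the block).

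AT2G46910 shared with AT5G19940 a wide spread between numbers, with an SD of 0.292 on the log2 scale, but over other numbers. Its lowest arrays were numbers 3 and 4 in both groups, at 1.3 and 1.29 with cytokinin and 1.31 and 1.26 with water, whereas AT5G19940 was lowest in numbers 5 and 6. AT5G09820 averaged 0.911 ± 0.0906 with cytokinin and 0.906 ± 0.108 with water (SD, n = 6 each), a log2 difference of 0.01 (adjusted p = 0.999, and 0.907 with the block). AT2G35490 was the only measured fibrillin with a mean below 0 after normalization, at -0.13 on the log2 scale (adjusted p = 0.867, and 0.154 with the block). It averaged 1.56 ± 0.129 with cytokinin and 1.72 ± 0.265 with water (SD, n = 6 each). Its ratios ran from -0.31 in number 2 to 0.04 in number 6, so the sign was not the same in all numbers. On the deposited values the mean of AT2G35490 was -0.19, and AT2G46910 and AT5G09820 also lay below 0, at -0.03 and -0.07, so the direction of these last 2 turned with the scaling. The differences between fibrillins were not tested.

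**Figure D4:**
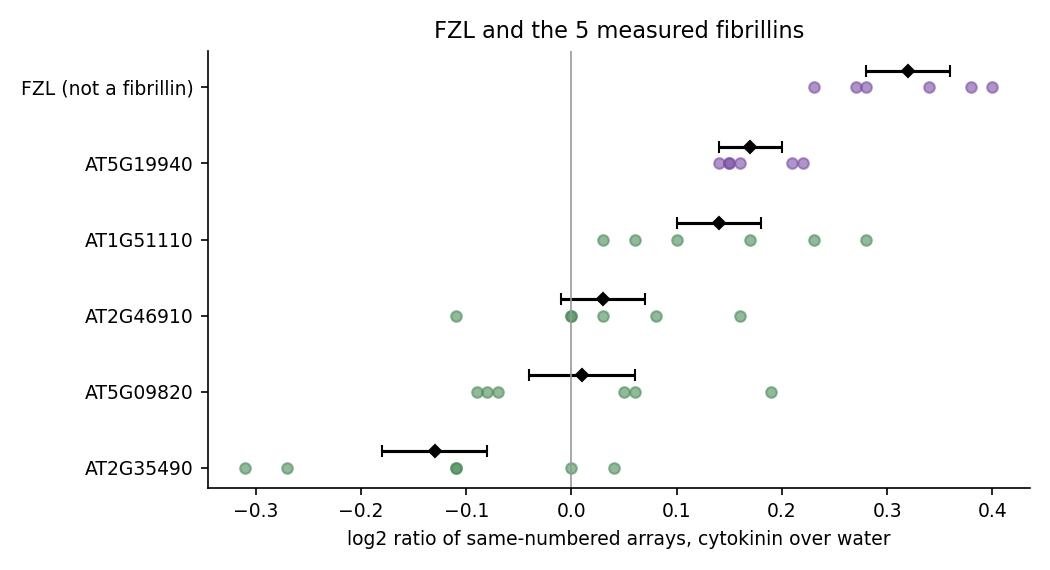
Log2 ratios of same-numbered arrays, cytokinin over water, for FZL and the 5 measured fibrillins, with 6 points per gene and a black diamond for the mean ± SE of the fit with the replicate block. The points of FZL and AT5G19940, which were chosen for these values, and those of AT1G51110 all lie above 0, and those of the other fibrillins lie on both sides of 0 or, for AT2G35490, mostly below it. These are normalized ratios, and the means of AT2G46910 and AT5G09820 lie below 0 on the deposited values.

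For FZL, no other gene of the lists below was the only gene of a feature. Of 23 genes of plastid membrane organization and division, 1, FZL itself, was the only gene of a feature, and another 4 occurred only on shared features. None of 12 dynamin-related genes and none of 12 genes of plastid membrane lipid synthesis and transport was the only gene of a feature. Whether any of these genes lies on the 1877 unnamed features is not known here. Whether other parts of the plastid division or membrane lipid machinery moved with FZL was thus not analysed here.

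The genes with the most similar profile were looked for among the 612 other tested features with 1 gene, as the root-mean-square difference of log2 intensity over the 12 arrays after each profile was centred on its own mean. For FZL the nearest were AT1G73470, AT4G31530 and AT3G57630, at 0.0998, 0.105 and 0.106, against a median of 0.235 over the 612. All had smaller differences between the groups than FZL, at 0.16, 0.15 and 0.20 on the log2 scale. None of these 3 passed without the block (adjusted p from 0.176 to 0.343), where 1.55% of all features did, and all passed with it (adjusted p from 0.00999 to 0.0468), where 11.7% did. They were picked for a profile like that of FZL, its difference between the groups included, which favours passing. When only deviations from the group means were compared, 0 of these 3 genes stayed among the nearest. The genes that took their place, AT1G78790, AT4G02580 and PIFI, were at the floor of 0.258, below which values were raised to it, on 5, 10 and 11 of the 12 arrays, so their profiles are flattened by the floor.

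For AT5G19940 the nearest profiles were AT5G48830, AT4G20820 and AT1G62010, at 0.142, 0.177 and 0.207, against a median of 0.346. AT5G48830 averaged 0.557 ± 0.0995 with cytokinin and 0.568 ± 0.0916 with water (SD, n = 6 each), and was highest in number 2 of both groups, as AT5G19940 was. The log2 differences between the groups of the 3 genes were -0.03, 0.05 and -0.04 (adjusted p = 0.999 for each without the block). Their likeness to AT5G19940 thus lay mainly in the levels over the numbers, which held 92% of its sum of squares. Treatment held 7.8%, so for this gene the measure gives little weight to the difference between cytokinin and water. The profiles of FZL and AT5G19940 differed from each other by 0.261 on the same measure.

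**Figure D5:**
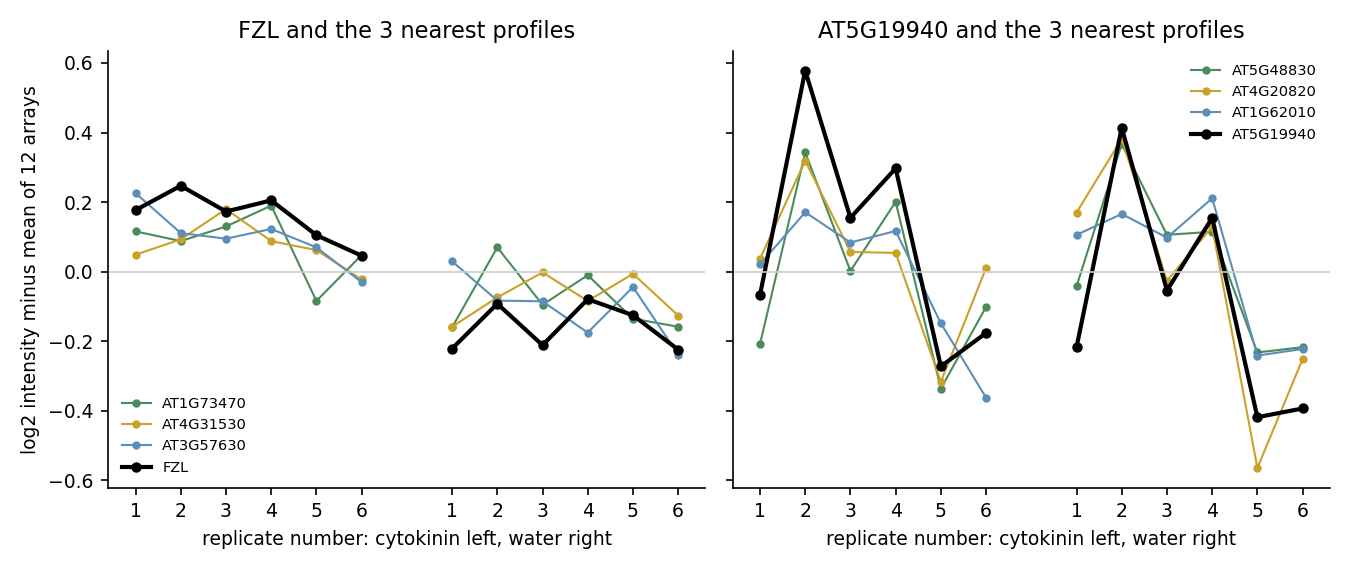
Log2 intensity of FZL and of AT5G19940 (black) and of the 3 genes nearest to each (colours) on cytokinin arrays 1 to 6 and water arrays 1 to 6, each centred on its mean over the 12 arrays; the numbers have no order and lines only guide the eye. FZL itself separates the groups while the 3 genes nearest to it overlap between them, and the AT5G19940 profiles have number 5 or 6 lowest in each group.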

How the data were processed

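Total RNA of 12 cell culture arrays was compared, 6 with cytokinin and 6 with water. The deposited table holds intensity values of 3439 features on a linear scale, and no label or header states the authors' background correction or scaling. The 2 genes, the lists of related genes and the sets of numbers were chosen with earlier results of these data known. Features were named through the platform annotation and a RefSeq gene table (TAIR10.1, names only), which held 690 of the 692 features with 1 gene; 870 name several genes and 1877 are unnamed here. Intensities were quantile-normalized, raised to a floor of 0.258 (the 10th percentile of all values above 0) where lower, and put on the log2 scale. Of the features, 348 never exceeded this floor and were not tested. The 3091 others were fitted in R 4.3.3 with limma 3.58.1 (lmFit, eBayes, two-sided, Benjamini-Hochberg, threshold 0.05), without and with a block for the replicate number; log2 differences are cytokinin minus water. Adjusted p-values are over all features tested. Same-numbered arrays correlated at 0.7 or more in every pair, and each of the 12 correlated best with its own number, so the numbers were treated as pairs, which the labels do not state. Genes were named by rule: both members, measured genes of the lists, and the 3 nearest profiles of each member. The fit was also run on simulated data. The changes put in were larger than those of FZL and AT5G19940, in features with a spread below the median. That run therefore says nothing about these 2 genes. Plots were drawn with matplotlib 3.10.9. The number of arrays limits the precision. Whether features separate close relatives is not known here.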

Additional observations from a re-analysis of the deposited data

Results flagged for a closer look

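No array stood apart in any of 12 groups of 6 values, taken from FZL and the 5 measured fibrillins in each treatment, when the gap of the highest or lowest array to its nearest neighbour was set against the range of the group (largest share 0.426, below the limit of Dixon's test). Chance alone gives such a gap in about 1 in 20 groups. AT5G19940 on number 2, its highest array in both groups, gave shares of 0.331 with cytokinin and 0.311 with water.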

How the results depend on the processing

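FZL stayed above 0 in all 44 other settings (log2 difference 0.26 to 0.36), as did AT5G19940 (0.07 to 0.27); both were picked on these arrays, which the settings reuse. FZL had an adjusted p under 0.05 in 38 of 42 fits, including all 12 that leave out 1 array (0.0117 to 0.0307). The exceptions were set means without a block (0.958) and with it (0.0595). The others were the unblocked fits without numbers 1 and 2 (0.124) or 3 and 4 (0.145). These fits leave fewer samples, as does the unblocked fit without numbers 5 and 6 (0.0441), and the cause was not tested. AT5G19940 passed in 9 of 42, all with the replicate block. It missed with the block on deposited values (log2 difference 0.09, adjusted p = 0.0722), with the number as a random effect (0.13), with the set as a block (0.386), and with the replicate block without numbers 1 and 2 (0.066), 3 and 4 (0.0611) or 5 and 6 (0.0583). It passed with the block when any single number was left out (0.0334 to 0.0439). Without the block, leaving out 1 array moved its log2 difference between 0.07 (without cytokinin array 2) and 0.27 (without water array 2). The spread used to judge a move was the SD of the 6 ratios, 0.0669 for FZL and a narrower 0.0332 for AT5G19940. A shift of the log2 difference by that SD or more was counted as a move. FZL moved in 0 of the 44 other settings and AT5G19940 in 11.

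Of the features tested, 48 passed without a block, 85 after median scaling, 76 with array weights, 361 with the replicate block, 387 with the number as a random effect and 310 with the set as a block. Set means without a block gave 0 in limma (99 at an unadjusted p of 0.05). Leaving out numbers 1 and 2, 3 and 4, or 5 and 6 gave 5, 7 and 21 without the block and 160, 264 and 217 with it. Leaving out single numbers 1 to 6 with the block gave 218, 198, 260, 251, 239 and 224. The replicate block gave 478 after a running median over 51 neighbouring features was removed, 837 on the deposited values and 477 after median scaling. Leaving out single numbers, and the block on deposited or median-scaled values, were added after seeing the data. Rises were 34 of 48 calls after quantile normalization, 18 of 46 on the deposited values and 70 of 85 after median scaling. The cause of these differences was not tested, also for the fits with fewer samples. The 4 other fibrillins passed in 0 of the few fits run for them (see Results). Motif counts in promoters were not run.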
